A study of Homo sapiens with 9 samples.

Results

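A set of 39 human genes of DNA replication and mitosis was examined among the 20777 genes listed for RNA sequencing of LX-2 cells. The genes were taken by name, as a module of 18 replication genes and 21 mitosis genes; the selection rule uses no measured value, but the module was proposed with earlier results of these data known. LX-2 is an immortalised line derived from human hepatic stellate cells, the liver cells that turn into collagen-producing myofibroblasts in fibrosis. As an immortalised line it divides continuously in culture, and its genotype is labelled as wide type in every sample. The study compared 3 libraries of LX-2 cells without a treatment label (control), 3 of cells treated with transforming growth factor-β (TGF-β) and 3 of cells treated with TGF-β and the nucleoside uridine, with both treatments labelled as day 1. Per the study's methods, cells were first treated with TGF-β and the medium was then exchanged for one with uridine. No group analysed here received uridine without TGF-β. Nothing in the labels says that the 3 libraries of a group came from separate cultures, so the tests measure the spread between these libraries, which may be technical. In RNA from whole cultures, fewer dividing cells and less RNA of these genes per dividing cell cannot be told apart.

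DNA replication begins when the origin recognition complex, CDC6 and CDT1 load the MCM helicase, a ring of the subunits MCM2 to MCM7, onto replication origins in G1 phase. The helicase is switched on in S phase with the help of the GINS complex, while ribonucleotide reductase and thymidylate synthase supply the nucleotides for the new strands. Genes of this phase are widely controlled by E2F factors, which the retinoblastoma protein holds back until cyclin E and its kinase act. Genes needed for division, among them cyclin B, the Polo and Aurora kinases and the spindle motors, are switched on later, in G2 phase, through the DREAM complex, MYBL2 and FOXM1, which act on promoter elements called the CHR and the CCAAT box. Uridine is a pyrimidine nucleoside that cells can convert to the precursors of RNA and DNA, and TGF-β is known to stop the division of many epithelial cells while it activates stellate cells.

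The promoters of the members held the letters of these elements in different shares. RefSeq start-site windows of build GRCh38.p14, which run from 250 bases before to 50 bases after a start, were matched for 32 of the 39 members, and AURKA, BIRC5, CCNE2, MCM4, MCM5, TPX2 and UBE2C were not matched. E2F letters (TTTCCCGC, TTTGGCGC, TTTCGCGC or TTTGCCGC on either strand) stood in a window of 10 of 15 matched replication genes and 2 of 17 matched mitosis genes, against 3.99% of 27305 genes with a window. CHR letters (TTTGAA or TTCGAA on either strand) stood in 3 of 15 replication genes and 12 of 17 mitosis genes, against 19.5% of all genes. The letters CCAAT, on either strand, stood in 11 of 15 replication genes and 15 of 17 mitosis genes, against 39.7% of all genes. A match of letters describes the window and does not show that a factor binds there. The windows of 4 members, chosen with their values in the comparisons below seen, are given 5′ to 3′ on the strand of the gene. E2F, CHR and CCAAT letters are in capitals, and neighbouring matches can overlap and then run together. The MCM2 window lies at chr3:127598161-127598460 on the plus strand, the GINS2 window at chr16:85688905-85689204 on the minus strand, the CDC20 window at chr1:43358731-43359030 on the plus strand and the MKI67 window at chr10:128126374-128126673 on the minus strand. The orientation was checked for the MCM2 and GINS2 windows but not for those of CDC20 and MKI67.
MCM2: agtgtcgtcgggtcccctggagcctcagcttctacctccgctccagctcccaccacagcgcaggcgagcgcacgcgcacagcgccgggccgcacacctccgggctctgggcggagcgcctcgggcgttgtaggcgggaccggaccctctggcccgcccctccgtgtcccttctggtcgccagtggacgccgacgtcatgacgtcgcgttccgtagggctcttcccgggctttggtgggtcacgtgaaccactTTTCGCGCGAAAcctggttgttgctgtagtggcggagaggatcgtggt
GINS2: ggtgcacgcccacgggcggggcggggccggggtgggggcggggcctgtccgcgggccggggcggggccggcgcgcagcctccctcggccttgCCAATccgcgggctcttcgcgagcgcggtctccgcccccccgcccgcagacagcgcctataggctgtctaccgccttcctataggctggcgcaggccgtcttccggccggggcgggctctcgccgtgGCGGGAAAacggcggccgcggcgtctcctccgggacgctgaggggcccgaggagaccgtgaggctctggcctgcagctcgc
CDC20: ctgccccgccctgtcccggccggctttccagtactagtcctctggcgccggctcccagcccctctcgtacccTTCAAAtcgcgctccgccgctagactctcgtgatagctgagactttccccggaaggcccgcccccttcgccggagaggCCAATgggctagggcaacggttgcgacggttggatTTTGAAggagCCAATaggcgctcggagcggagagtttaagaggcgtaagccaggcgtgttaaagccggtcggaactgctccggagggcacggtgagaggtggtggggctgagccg
MKI67: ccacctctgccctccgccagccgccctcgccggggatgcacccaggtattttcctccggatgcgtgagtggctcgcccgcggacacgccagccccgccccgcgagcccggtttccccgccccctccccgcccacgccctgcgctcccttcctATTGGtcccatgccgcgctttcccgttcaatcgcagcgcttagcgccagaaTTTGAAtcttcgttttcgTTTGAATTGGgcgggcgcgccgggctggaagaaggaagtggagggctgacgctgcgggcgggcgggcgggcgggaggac
The first base of the E2F letters stood at position 2 after the start in MCM2, where the match reads on both strands and overlaps itself, and at −31 in GINS2. CDC20 and MKI67 each held the CHR letters at 2 positions and CCAAT at 2 positions, and neither held E2F letters. In MKI67 the CHR letters at −29 and the reverse of CCAAT at −24 overlap.

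Total counts ran from 40539751 to 41467124 per library, so that 3 counts corresponded to 0.0723 to 0.0740 CPM, a count scaled to a common library size. That range is without TMM factors, which correct for differences in composition between libraries. The CPM values of single genes and sums include these factors. Of 10 stellate and mesenchymal marker genes, 9 were listed, with a summed level of 1532 to 1821 CPM in the controls, 2532 to 2633 CPM after TGF-β and 2146 to 2489 CPM after TGF-β and uridine, while LRAT was not listed. The summed level of hepatocyte markers was at most 0.366 CPM, with ALB and TTR not listed. Summed epithelial markers were at up to 19.1 CPM in controls and 38.2 to 46.6 CPM in the treated libraries. Of these 4 markers, 2 had a median under 1 CPM, and only CLDN4 passed edgeR's test, higher in both treated groups than in controls. The median log2 fold change of the 3 tested was 0.40 for TGF-β against control and −0.17 for both treatments against control. Endothelial markers were at 1.59 to 2.88 CPM. Leukocyte markers were at 26.7 to 40.8 CPM with PTPRC and CD3E not listed. Of these 4 markers, 3 were not listed or had a median under 1 CPM, so that the sum came mostly from 1 gene. Libraries differed within groups in how level depended on the GC content of the transcript. The slope of log2 CPM on GC fraction, relative to the mean of the 9 libraries, was 5.65 in control replicate 1 and −4.10 in control replicate 3. It ran from −0.32 to 0.54 among libraries of the TGF-β group, and was 2.28 and −2.69 in replicates 2 and 3 of TGF-β and uridine.

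Levels between genes were compared as FPKM, which divides the counts by transcript length and library size. The mitosis genes spanned the widest range of levels. CDC20, the activator of the anaphase-promoting complex, had the highest median level over the 9 libraries, 289.8 FPKM (range 264 to 336), followed by CCNB1, the mitotic cyclin B1, at 208 FPKM (169 to 229) and the mitotic kinase PLK1 at 201 FPKM (178 to 221). The ranges of CCNB1 and PLK1 overlapped, whereas the lowest CDC20 value lay above the highest CCNB1 value. Among the replication genes, MCM7 (152 FPKM), thymidine kinase TK1 (149 FPKM) and MCM2 (147 FPKM) led with overlapping ranges. At the lower end stood the DNA topoisomerase TOP2A at 1.73 FPKM, the spindle motor KIF11 at 0.817 FPKM, the kinetochore protein CENPF at 0.426 FPKM, cyclin E2 (CCNE2) at 0.203 FPKM and the kinetochore motor CENPE at 0.0196 FPKM. CENPE held 1 to 21 counts in 8 libraries and 183 counts in replicate 3 of TGF-β and uridine, and it did not pass the filter on low counts, which left 38 members tested. CCNE2 was at 0 counts in control replicate 1.

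**Figure D1:**
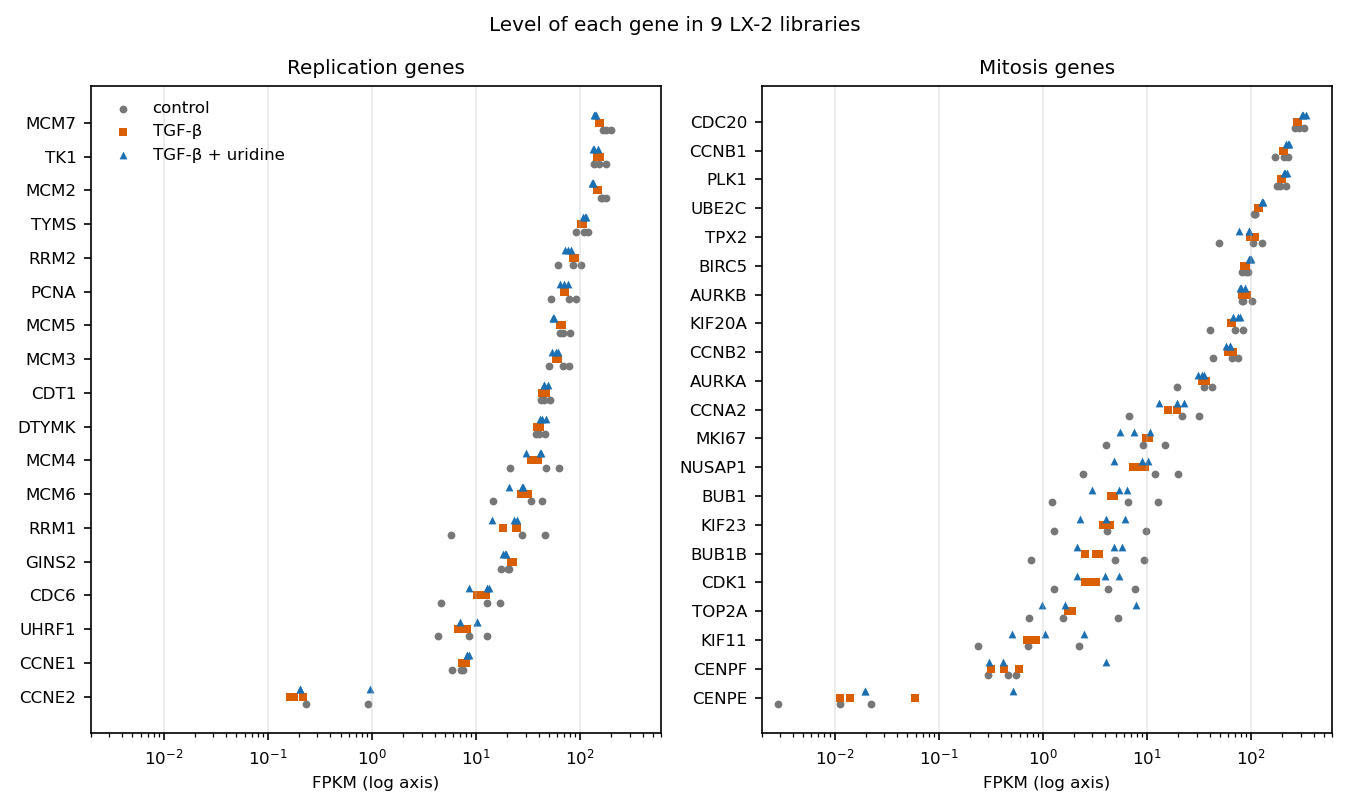
FPKM of each gene (logarithmic horizontal axis) in the 3 control, 3 TGF-β and 3 TGF-β and uridine libraries, with 1 point per library and genes ordered by their median. CCNE2 in control replicate 1 is at 0 and is not drawn. The levels run from a median of 289.8 FPKM for CDC20 to 0.0196 FPKM for CENPE, and the control points spread most among the genes of low level.

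The 3 comparisons used the same model, and the TGF-β libraries or the controls enter more than 1 of them, so their results are not independent of each other. No member passed an adjusted p of 0.05 in edgeR's quasi-likelihood test in any of them. For TGF-β and uridine against TGF-β, 0 of 38 members were called, against 0.0448% of 13384 genes tested, and 1 member, RRM2, had an unadjusted p under 0.05. For TGF-β against control, 0 of 38 were called against 3.38% of all genes, and no member had an unadjusted p under 0.05. For TGF-β and uridine against control, 0 of 38 were called against 5.33% of all genes. MCM2, MCM3, MCM5 and MCM7, 10.5% of the tested members, had an unadjusted p under 0.05, all lower. Over all genes tested, the share with an unadjusted p under 0.05 was 8.79%, 12.1% and 17.6% in these comparisons, in the same order. DESeq2 called no member in any of the 3 comparisons either, against 0.564%, 3.47% and 5.32% of all genes in the same order.
The median log2 fold change after uridine was −0.08 over the replication genes and 0.09 over the mitosis genes, beside 0.02 over all genes tested. After TGF-β alone these medians were −0.08 and −0.02, beside −0.05 over all genes. The 95% interval of the log2 fold change after uridine lay within 2-fold in either direction for 27 of 38 members, and for TGF-β against control for 28 of 38. The other members had intervals that include changes of 2-fold or more. The model estimates spread from all 9 libraries, so the spread of the controls enters the SE after uridine as well. Without control replicate 1, 0 of 39 members were called after uridine, against 1.98% of 13684 genes. In that fit 7 members had an unadjusted p under 0.05 (edgeR).

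Of the 6 helicase subunits, MCM2, MCM3, MCM5 and MCM6 did not overlap between TGF-β and uridine and TGF-β, a separation that 25.6% of all genes tested showed, and none passed the test in the model of condition. MCM2 was at 760, 555 and 488 CPM in control replicates 1 to 3, at 530, 526 and 513 CPM after TGF-β, and at 446, 508 and 436 CPM after TGF-β and uridine. All 3 uridine libraries lay below all 3 TGF-β libraries, while the controls spanned a wider range than the TGF-β libraries. The log2 fold change of MCM2 after uridine was −0.18 (SE 0.158, adjusted p = 0.878, edgeR).
MCM5 was at 399, 271 and 229 CPM in controls, 285, 267 and 264 CPM after TGF-β and 221, 241 and 208 CPM with uridine, a log2 fold change of −0.28 (SE 0.185) between the treated groups. The uridine libraries again lay below the TGF-β libraries without overlap. MCM3 was at 208, 223 and 230 CPM in controls, 208, 208 and 205 CPM after TGF-β and 192, 197 and 191 CPM with uridine, which placed the uridine libraries below both other groups. MCM6 was at 66.8, 122 and 139 CPM in controls, 104, 117 and 117 CPM after TGF-β and 98.9, 84.1 and 98.9 CPM with uridine, and its uridine and TGF-β libraries did not overlap.
For MCM7, with 723, 518 and 434 CPM in controls, 474, 469 and 454 CPM after TGF-β and 399, 466 and 388 CPM with uridine, replicate 2 of the uridine group lay within the TGF-β range. MCM4 overlapped in the same comparison, at 147 to 163 CPM after TGF-β and 137 to 164 CPM with uridine. Summed over the 6 subunits, the level was 1746 to 2265 CPM in controls, 1716 to 1748 CPM after TGF-β and 1487 to 1632 CPM with uridine. MCM7 had the highest and MCM6 the lowest level per length of the 6 in each of the 9 libraries, but their ratio varied from 3.88 in control replicate 3 to 13.5 in control replicate 1, with 4.83 to 5.68 in the TGF-β libraries and 4.88 to 6.89 with uridine.

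**Figure D2:**
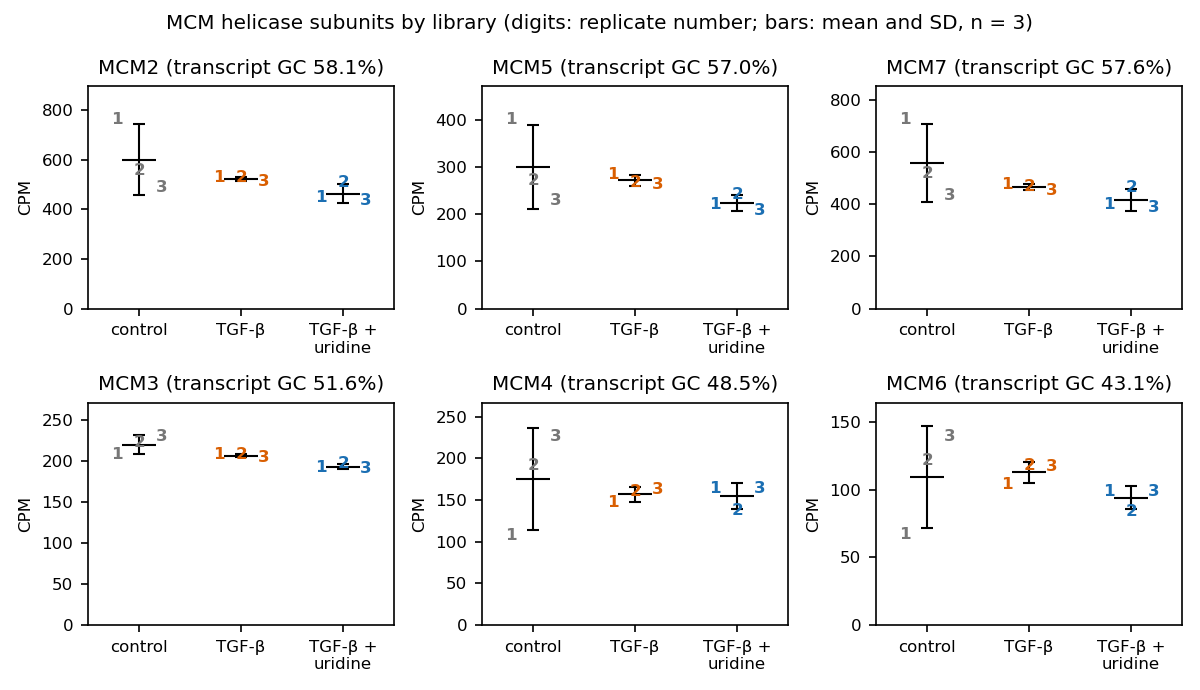
CPM of the 6 MCM helicase subunits by group; digits mark the replicate number of each library, and bars give the mean and SD (n = 3). MCM2, MCM5 and MCM7, with transcript GC contents of 57% to 58%, are highest in control replicate 1, while MCM4 and MCM6 are lowest there. All 3 uridine libraries lie below the TGF-β libraries for MCM2, MCM3, MCM5 and MCM6.

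None of the other replication genes of the origin and the fork passed the test after uridine in the model of condition. GINS2, a subunit of the GINS complex, was at 66.9, 51.6 and 39.9 CPM in controls, 61.7, 57.5 and 58.1 CPM after TGF-β and 48.5, 55.3 and 44.1 CPM with uridine. Its treated groups did not overlap, and the controls spanned both. The clamp PCNA differed less, at 99.7 to 101 CPM after TGF-β and 94.8 to 98.1 CPM with uridine, again without overlap. The loading factors CDC6 and CDT1 and the replication-coupled methylation reader UHRF1 overlapped between all pairs of groups, with log2 fold changes after uridine of −0.04 (SE 0.296), 0.01 (SE 0.190) and 0.21 (SE 0.241).

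Nucleotide supply genes differed among themselves. RRM2, the S-phase subunit of ribonucleotide reductase, was at 256, 283 and 301 CPM in controls, 301, 306 and 301 CPM after TGF-β and 255, 263 and 258 CPM with uridine. It had the smallest p of the members after uridine, a log2 fold change of −0.23 (SE 0.0889, unadjusted p = 0.0306, adjusted p = 0.499, edgeR), which did not pass. RRM1, the large subunit of the same enzyme, was at 25.3, 96.3 and 144 CPM in controls. It was at 67.4, 88.0 and 88.5 CPM after TGF-β and 86.3, 55.3 and 76.5 CPM with uridine. Its SE after uridine was 0.490, in a model that shares the spread of all 3 groups, controls included. Thymidylate synthase TYMS, which makes dTMP from the uridine-derived dUMP, was at 186 to 193 CPM after TGF-β and 188 to 205 CPM with uridine, with a log2 fold change of 0.04 and a 95% interval from −0.15 to 0.23. Thymidine kinase TK1 was at 244 to 271 CPM after TGF-β and 212 to 272 CPM with uridine, and the thymidylate kinase DTYMK at 46.4 to 49.2 CPM and 45.9 to 55.4 CPM, and both overlapped.

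The cyclins E bind the kinase that starts S phase. CCNE1 was at 13.9, 13.7 and 12.8 CPM in controls, 16.2, 14.4 and 15.7 CPM after TGF-β and 15.5, 18.1 and 14.9 CPM with uridine, and was the only member whose TGF-β and control libraries did not overlap. Its log2 fold change for TGF-β against control was 0.20 (SE 0.132, adjusted p = 0.739, edgeR). CCNE2 was at 0 to 3.37 CPM and near the depth limit in control replicate 1.

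Among the 20 tested mitosis genes, 3 lay higher and 2 lower with uridine than after TGF-β without overlap, a share of 25.0% beside 25.6% of all genes tested, and none passed the test. CDC20 was at 643, 461 and 376 CPM in controls, 467, 461 and 459 CPM after TGF-β and 500, 596 and 472 CPM with uridine, a log2 fold change of 0.18 (SE 0.184). CCNB1 was at 418, 407 and 395 CPM in controls, 424, 419 and 416 CPM after TGF-β and 439, 476 and 430 CPM with uridine, so that the uridine libraries lay above the other 6. The same was true of the cytokinesis motor KIF20A, at 154, 210 and 222 CPM in controls, 210, 199 and 204 CPM after TGF-β and 226, 223 and 226 CPM with uridine.
The genes that lay lower were the spindle factor TPX2, at 351 to 381 CPM after TGF-β and 293 to 326 CPM with uridine, and the kinase that it activates, AURKA, at 105 to 112 CPM and 98.4 to 101 CPM. The proliferation marker MKI67 was at 65.5, 118 and 170 CPM in controls, 136, 140 and 129 CPM after TGF-β and 96.2, 78.9 and 131 CPM with uridine. In the uridine group MKI67 replicates 1 and 2 lay below the TGF-β range and replicate 3 within it, and the log2 fold change was −0.40 (SE 0.308, adjusted p = 0.834, edgeR).
The remaining regulators overlapped between the TGF-β and uridine groups. They were cyclins A2 and B2 (CCNA2, CCNB2), the kinases CDK1, PLK1 and AURKB, the chromosomal passenger protein BIRC5, the ubiquitin-conjugating enzyme UBE2C, the checkpoint genes BUB1 and BUB1B, the motors KIF11 and KIF23, the spindle protein NUSAP1, TOP2A and CENPF.

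In all, 12 of 38 tested members did not overlap between TGF-β and uridine and TGF-β, against 25.6% of all genes tested. All 7 replication genes among them were lower, while the 5 mitosis genes went both ways. Over the 13384 genes tested, 1715 lay lower and 1709 higher without overlap. Replication genes outside the module, described below, went both ways, with ORC1 and DNMT1 higher and CDC45 lower without overlap. For TGF-β against control, 1 member did not overlap, against 17.7% of all genes. For TGF-β and uridine against control, 4 members did not overlap, against 19.7% of all genes. These were MCM3 (lower) and CCNE1, CCNB1 and KIF20A (higher). With 3 libraries a group, the exact permutation test of a single gene cannot give a p below 0.1.

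**Figure D3:**
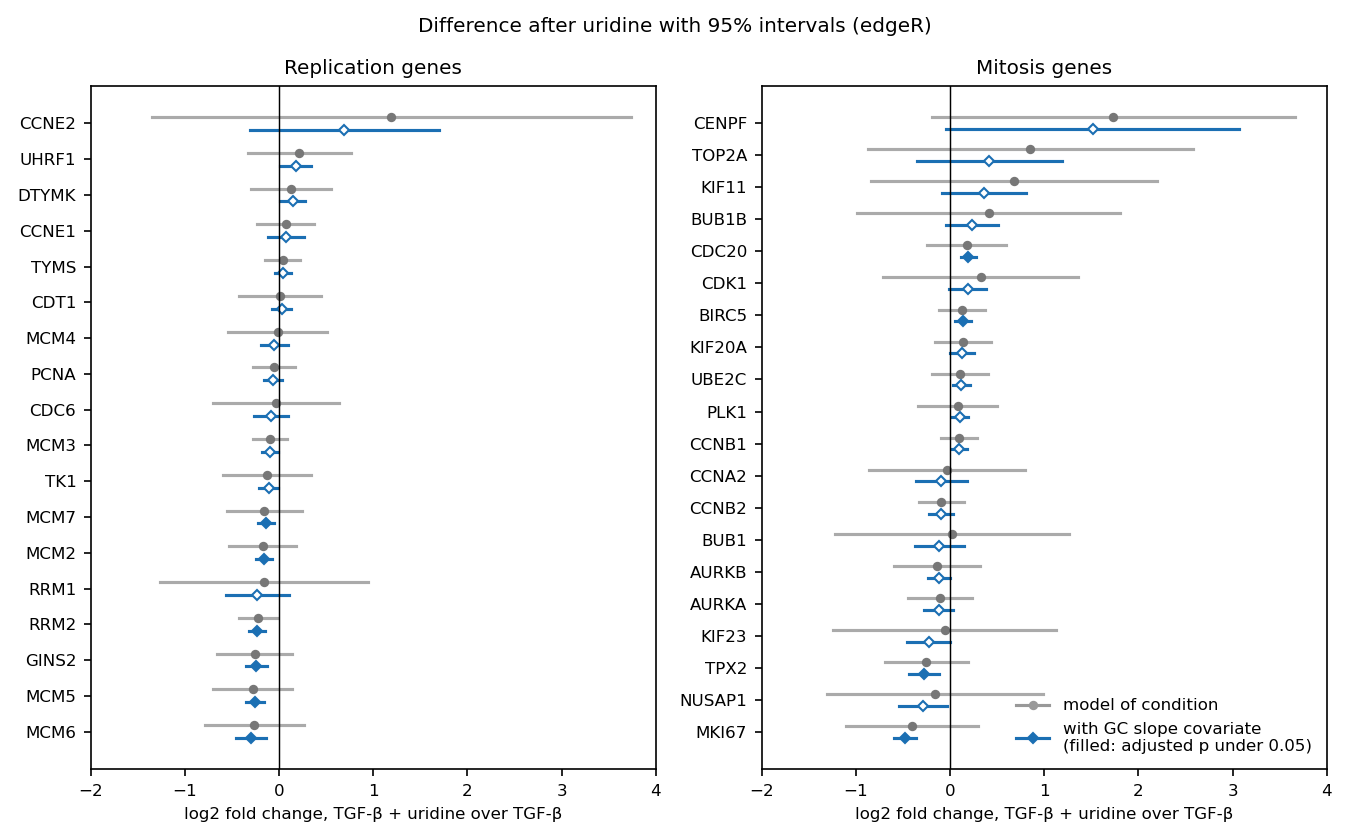
Log2 fold change of the 38 tested members for TGF-β and uridine against TGF-β, with 95% intervals from edgeR, for the model of condition (grey circles) and with the GC slope of each library as a covariate (blue diamonds, filled where the adjusted p is under 0.05). The grey intervals include 0 for every member but RRM2, and the blue intervals are narrower, with 10 filled symbols.

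The members' deviations within a group went with the GC content of their transcripts in some libraries and not in others. The median fold between the highest and the lowest library of a group was 1.75 in the controls, 1.08 after TGF-β and 1.24 with uridine. Of the 14 tested members with a GC content under 45%, 12 were lowest among the controls in replicate 1, and all 9 members over 55% were highest there. Among the 37 tested members with reads in every library, the checkpoint kinase-like BUB1B had the widest ratio between control replicates 1 and 3, at 3.47 CPM in control replicate 1 and 29.6 CPM in control replicate 3. Of the same 37 members TK1 stood at the other end, at 365 CPM and 198 CPM in these libraries. Across the 37 tested members with reads in every library, Pearson's r between GC content and the deviation from the mean of the gene's group was 0.74 in control replicate 1 and −0.79 in control replicate 3, beside 0.69 and −0.69 over 12210 genes. It was −0.36 in control replicate 2, 0.22, −0.43 and −0.05 in the TGF-β libraries, and 0.01, 0.74 and −0.58 in the uridine libraries. These are descriptions across genes, which share each library and are not independent.
In the uridine group, replicate 3 held the highest level of several genes of low level and low GC content. CENPF was at 4.16, 3.42 and 39.3 CPM in replicates 1 to 3, where the TGF-β libraries held 3.26 to 6.39 CPM. TOP2A was at 9.26, 6.14 and 42.8 CPM, against 10.0 to 11.2 CPM after TGF-β, and KIF11 at 5.09, 2.74 and 11.6 CPM. The fitted log2 fold change of CENPF after uridine, 1.73 (SE 0.852, adjusted p = 0.631, edgeR), thus rested on 1 library. In that library the deviations of the 37 members went with transcript length (r = 0.64) as well as with GC content (r = −0.58). Whether GC, length or another property of these libraries sets these values was not tested.

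**Figure D4:**
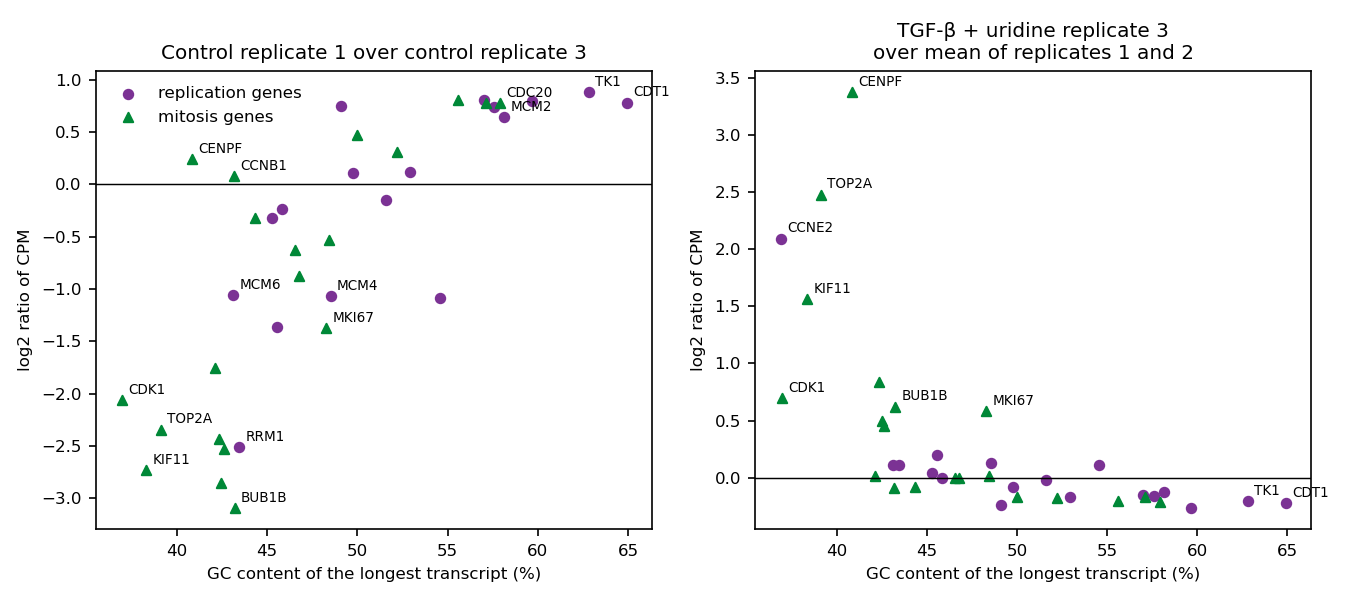
Log2 ratio of CPM between control replicates 1 and 3 (left) and between replicate 3 and the mean of replicates 1 and 2 of TGF-β and uridine (right), against the GC content of the longest transcript, with 1 point per tested gene. CENPE, which was not tested, is left out of both panels, and CCNE2, at 0 in control replicate 1, has no value on the left. Among the genes drawn, the control ratio runs from −3.10 for BUB1B to 0.88 for TK1, and on the right CENPF, TOP2A, CCNE2 and KIF11 lie highest.

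When the GC slope of each library was added to the model as a covariate, the median SE of the members after uridine went from 0.193 to 0.0606, and calls appeared. With uridine, 10 of 38 members (26.3%) passed, against 19.1% of all genes in the same fit. The 6 replication genes among them fell. They were MCM2, with a log2 fold change of −0.16 (SE 0.0388), MCM5 (−0.26, SE 0.0464), MCM6 (−0.30, SE 0.0732), MCM7 (−0.14, SE 0.0393), GINS2 (−0.24, SE 0.0521) and RRM2 (−0.23, SE 0.0404). Of the mitosis genes, TPX2 (−0.27, SE 0.0734) and MKI67 (−0.48, SE 0.0532) fell, and CDC20 (0.19, SE 0.0359) and BIRC5 (0.14, SE 0.0381) rose. The adjusted p of MKI67 in this fit was 9.37e-05 (edgeR), with a range from 2.45e-07 to 1 over the alternatives tried. For MCM5 it was 0.00224, with a range from 5.53e-06 to 1. Offsets for GC and length, an alternative chosen after seeing the data, called only MCM2 and MCM7 of the 10. The fit with offsets called 4.98% of 12319 genes.
Each of these 10 genes kept its direction after uridine in every alternative that tested it. So did MCM3, TK1, CCNB2, AURKA and AURKB (lower) and UHRF1, TYMS, DTYMK, CCNE2, CCNB1, CDK1, BUB1B, UBE2C and KIF20A (higher), whereas 14 members changed sign in at least 1 alternative. CCNE2 was tested in 22 of 25 alternatives, and was at 0.744, 0.836 and 3.37 CPM in uridine replicates 1 to 3. The same 9 libraries underlie all alternatives.

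With the covariate, TGF-β against control called 7 of 38 members, against 20.3% of all genes. GINS2, TPX2, UBE2C and MKI67 rose, by log2 fold changes of 0.21 (SE 0.0521), 0.23 (SE 0.0734), 0.14 (SE 0.0404) and 0.27 (SE 0.0531). MCM2 (−0.16, SE 0.0387), MCM7 (−0.21, SE 0.0393) and CDK1 (−0.29, SE 0.0914) fell. GINS2, TPX2 and MKI67 thus had opposite signs in this comparison and after uridine, in which the TGF-β libraries enter on opposite sides.
TGF-β and uridine against control called 15 of 38 members with the covariate, against 31.1% of all genes. MCM2, MCM3, MCM5, MCM6, MCM7, RRM2, NUSAP1 and MKI67 fell, from −0.12 (SE 0.0405) for RRM2 to −0.35 (SE 0.0395) for MCM7. CCNE1, CCNB1, CDC20, PLK1, BIRC5, UBE2C and KIF20A rose, from 0.14 (SE 0.0382) for BIRC5 to 0.27 (SE 0.0885) for CCNE1.
Without control replicate 1 and without the covariate, this comparison called 7 members, against 17.6% of 13684 genes. MCM3, MCM4, MCM6, NUSAP1, RRM1 and TPX2 fell and UBE2C rose.

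Some regulators upstream of these genes passed the test in the model of condition. In a list of 15 G1 cyclins, CDKs and CDK inhibitors, CDKN2B, which encodes the CDK4 and CDK6 inhibitor p15 and is a known target of TGF-β, was at 9.86, 12.1 and 14.6 CPM in controls, 61.0, 60.3 and 61.4 CPM after TGF-β and 35.3, 35.6 and 39.5 CPM with uridine. The 3 groups did not overlap. CDKN2B rose after TGF-β by a log2 fold change of 2.32 (SE 0.149, adjusted p = 7.39e-05, edgeR) and in TGF-β and uridine against control by 1.59 (SE 0.146, adjusted p = 0.000467, edgeR), and its value between the treated groups was −0.73 (SE 0.142, adjusted p = 0.169, edgeR).
CDKN1A, which encodes p21, was at 152, 97.6 and 88.1 CPM in controls, 199, 188 and 180 CPM after TGF-β and 192, 214 and 182 CPM with uridine. It rose in TGF-β and uridine against control (log2 fold change 0.80, SE 0.190, adjusted p = 0.0451, edgeR), and its value for TGF-β against control was 0.75 (SE 0.190, adjusted p = 0.0783, edgeR). CCND1, the G1 cyclin D1, and MYC were not called in any comparison in the model of condition. CCND1 was at 66.2 to 89.4 CPM in controls, 88.2 to 105 CPM after TGF-β and 78.0 to 88.5 CPM with uridine, and MYC at 243 to 283, 249 to 260 and 247 to 281 CPM. With the GC slope covariate, CCND1 rose after TGF-β (log2 fold change 0.30, SE 0.0646) and fell after uridine (−0.25, SE 0.0645), CDKN2B fell after uridine (−0.74, SE 0.0607), and MYC was not called. Over the list of 15, that fit called 0 higher and 4 lower after uridine, 6 and 2 after TGF-β, and 4 and 3 for both treatments against control. In the same fit 19.1%, 20.3% and 31.1% of all genes tested were called, in that order.

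Of 19 tested E2F, RB and DREAM regulators, E2F2, one of the activating E2F factors, was the only gene called in the model of condition. It was at 30.9, 34.2 and 32.5 CPM in controls, 21.3, 22.4 and 22.8 CPM after TGF-β and 22.4, 19.4 and 23.6 CPM with uridine, and fell after TGF-β by 0.55 (SE 0.115, adjusted p = 0.0334, edgeR) and in TGF-β and uridine against control by 0.58 (SE 0.115, adjusted p = 0.0217, edgeR) on the log2 scale. E2F1 was at 88.7 to 159 CPM in controls, 112 to 130 CPM after TGF-β and 114 to 136 CPM with uridine. MYBL2 was at 804 to 1690, 1175 to 1325 and 1232 to 1604 CPM, and FOXM1 at 512 to 783, 639 to 661 and 647 to 762 CPM, in the same order. E2F1, MYBL2 and FOXM1 were not called in that model, and their treated groups overlapped. With the GC slope covariate, MYBL2 rose in all 3 comparisons, by 0.18 (SE 0.0469) after uridine, 0.14 (SE 0.0469) after TGF-β and 0.33 (SE 0.0471) for both against control on the log2 scale. FOXM1 rose after uridine (0.13, SE 0.0333) and for both against control (0.19, SE 0.0335), and E2F1 was not called. Over the 19 regulators, that fit called 4 higher and 1 lower after uridine, 1 and 2 after TGF-β, and 4 and 2 for both against control. The shares called over all genes tested were 19.1%, 20.3% and 31.1%, in that order.
Of the 42 other replication genes tested, none was called after uridine or after TGF-β in the model of condition, with unadjusted p under 0.05 for 4 and 2 of them, and GINS3, another GINS subunit, rose in TGF-β and uridine against control by 0.42 (SE 0.0970, adjusted p = 0.0411, edgeR). None of 53 other mitosis genes was called in any comparison in that model. At an unadjusted p under 0.05 stood 6, 0 and 6 of them after uridine, after TGF-β and in both against control. None of 12 other genes of nucleotide metabolism was called, with 0, 0 and 0. Over all genes tested, 8.79%, 12.1% and 17.6% had an unadjusted p under 0.05, in that order. The GC slope covariate gave calls in both directions. After uridine, 5 of the other replication genes rose, among them the origin recognition subunit ORC1 (0.30, SE 0.0468) and the maintenance methyltransferase DNMT1 (0.27, SE 0.0416), and 5 fell, among them the helicase cofactor CDC45 (−0.32, SE 0.0658); these 3 are named with their values seen. That fit called 3 higher and 2 lower after TGF-β, and 8 and 5 for both against control. For the other mitosis genes it called 4 higher and 4 lower after uridine, 0 and 3 after TGF-β, and 3 and 6 for both against control. For the 12 genes of nucleotide metabolism it called none after uridine, 1 higher after TGF-β, and 2 higher and 1 lower for both against control. Beside these 3 lists, the fit with the covariate called 19.1%, 20.3% and 31.1% of all genes tested, in that order. The median log2 fold change after uridine in the model of condition was 0.03 for the other replication genes and 0.05 for the other mitosis genes, beside 0.02 over all genes tested.

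Exons of 13 members share bases with another annotated gene in GENCODE, for 10 of them with a gene on the opposite strand. The shares were largest for NUSAP1 (62.2% of its exon bases, with AC087721.2), TYMS (39.1%, with ENOSF1), CCNE2 (37.0%, with INTS8) and MCM2 (22.7%, with AC023593.1). ENOSF1 and INTS8 are among the genes listed for these data, whereas AC087721.2 and AC023593.1 are not. Whether the counting used strand is not given in the sources used here. The counts of these genes may therefore hold or lack reads of their neighbours.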

How the data were processed

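RNA of 9 LX-2 libraries was analysed, 3 per group, with groups taken from the sample labels. The authors deposited raw counts for each gene symbol and FPKM values for the same 20777 genes; dividing one by the other gave the same length for a gene in all libraries. The submitters' processing notes name fastp, HISAT2, HTSeq, R 3.2.0 and build GRCh38.p13, and the annotation is not given in the sources used here. Total counts of 40539751 to 41467124 per library set the counting precision, and limits for a count of 0 were taken as 3 counts and cover counting error only.

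After filterByExpr and TMM scaling, the whole count table was fitted by edgeR 4.0.16 under R 4.3.3, with its quasi-likelihood test, in 1 model of condition with 13384 genes tested and a common biological coefficient of variation of 0.289. Tests were two-sided, with Benjamini-Hochberg adjustment over all tested genes and a threshold of 0.05. The scripts were tested on simulated data. Alternatives were DESeq2 1.42.0, limma 3.58.1 on log2(FPKM + 1) and log2(FPKM + 0.1) for genes with a mean of at least 0.5 FPKM or without that filter, other normalizations and filters, fits of only the 2 groups compared, a replicate block, a covariate of each library's GC slope, and leaving out each library. GC content was taken from the longest GENCODE transcript and was known for 92.0% of tested genes and for all 39 members. Promoter windows came from RefSeq.

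All 39 members are named. From other gene lists, genes called in a comparison are named (at most 4 per list and comparison), with FOXM1, MYBL2, E2F1, CDKN1A, CDKN2B, CCND1 and MYC. The members and lists were chosen with earlier results of these data known.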

Additional observations from a re-analysis of the deposited data

How the results depend on the processing

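The number of members called (0 in all 3 comparisons) stayed at 0 with DESeq2, the other normalizations and count filters and the fit of only the 2 groups compared. The share of all genes called is given after uridine, after TGF-β and for both treatments against control. It was 0.564%, 3.47% and 5.32% with DESeq2, and 2.44%, 1.77% and 1.7% in the fit of only the 2 groups compared. With the other normalizations and count filters it ran from 0.0193% to 0.0747%, 1.83% to 3.95% and 2.64% to 6.37%. In the fit of only the 2 groups, 7, 0 and 0 members had an unadjusted p under 0.05 (edgeR). With limma the number of members called was 0 after uridine, 0 after TGF-β and 4 for both treatments against control. This held under each pseudocount and without the FPKM filter. These counts stood beside 3.89%, 8.1% and 14.3% of all genes at log2(FPKM + 1), and 3.81%, 8% and 14.1% at log2(FPKM + 0.1). Without the FPKM filter the shares were 1.42%, 3.83% and 6.56%. The covariate of GC slope gave 10, 7 and 15 calls in that order, against 19.1%, 20.3% and 31.1% of all genes. Leaving out 1 library at a time gave 0 to 0, 0 to 1 and 0 to 7 calls. After uridine these fits called from 0% to 1.98% of all genes. The 1 call after TGF-β (MCM4) and the 7 calls came without control replicate 1, against 7.93% and 17.6% of all genes. Alternatives chosen after seeing the data are given with their calls in the same order, and with the shares of all genes called. Leaving out control replicate 1 and uridine replicate 3 together gave 0, 1 and 9 calls, against 0.916%, 9.52% and 21.5%. Offsets for GC and length gave 2, 1 and 4 calls, against 4.98%, 10.2% and 17.4%. The GC slope covariate without control replicate 1 gave 14, 6 and 20 calls, against 22.5%, 15.3% and 31.9%. Without uridine replicate 3 it gave 17, 12 and 16 calls, against 20.7%, 27.2% and 34.1%. In the last of these CCNA2 was called for both treatments against control at a log2 fold change of 0.19, where the model of condition gave −0.06. Dropping a library lets the spread of the remaining ones stand for it, and the cause of these changes was not tested.

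Deviations from group means of same-numbered libraries correlated at −0.21 to 0.56, highest between replicate 3 of the controls and replicate 3 of TGF-β and uridine. Libraries of different numbers were not compared, so these values cannot decide whether a number marks a shared culture or preparation. The model of condition treated the libraries as unpaired. A fit with a replicate block called 0, 0 and 0 members, against 0%, 2.35% and 3.27% of all genes. The replicate block with the GC slope covariate called 9, 6 and 12, against 15.5%, 17.5% and 28.1% of all genes.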
